A study of Homo sapiens with 3 samples.

Results

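Cells of the lung carcinoma line H460 and of its derivative ldR-H460 that carried at least 2 RTN1 UMIs (unique molecular identifiers, each standing for 1 captured transcript) and at least 5000 UMIs in total are described here as RTN1-positive cells. They were chosen on their own RTN1 counts, so their RTN1 level describes the choice. Pooled, they had 112.1 CPM of RTN1 in H460 and 156.3 CPM in ldR-H460. There were 510 of them among 14638 deposited cells, 296 in H460 and 214 in ldR-H460. Each set was compared with the cells of its own culture that had 5000 or more UMIs and 0 RTN1 UMIs, called RTN1-0 cells, of which H460 held 2630 and ldR-H460 held 3533. The comparison asked whether other neural genes rise in the cells that carry RTN1. Neural genes as a group shifted little. Their median ratio of RTN1-positive to RTN1-0 cells was 1.01 in H460 and 1.05 in ldR-H460, against 0.979 and 0.990 over all measured genes. LSAMP and TUBB2B, both used as markers of such cells, had close to the same level in both classes of H460. In ldR-H460 LSAMP had too few UMIs to tell, and TUBB2B had a ratio of 1.22 (0.837 to 1.72). The name neural-gene cells was therefore not borne out, and the cells are called by their RTN1 count. RTN1 counts varied little more between cells than equal levels would give. Counts this low can look so even where levels differ, so how far the classes differ in true RTN1 level is not known. If they differ little, a gene that goes with RTN1 could show only a small ratio, which limits what the comparison can show.

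RTN1 encodes a reticulon, a hairpin protein that bends the membrane of the endoplasmic reticulum. It is abundant in neurons and neuroendocrine cells, and the gene family also holds RTN3 and RTN4 (Nogo), which most cell types make. LSAMP encodes a surface protein of the immunoglobulin superfamily that guides growing axons in the limbic system. TUBB2B encodes a beta-tubulin of migrating young neurons. Carcinoma cells can carry transcripts of single neural genes without being neurons.

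H460 is a long-established human carcinoma line of the lung, of the large-cell kind. Its derivatives mdR-H460 and ldR-H460, labelled mid-term and long-term, are H460 cells that went through a reprogramming protocol on feeder layers of irradiated human fibroblasts. The sources used here do not say for how long. Each culture was read as 1 library of single cells with 3' counting, so no difference between cultures or cell classes has a replicate check, and no p-value was computed. Intervals are at 95% and cover counting error only. Levels are in CPM, that is, a gene's UMIs per 1000000 UMIs when the cells of a class are pooled. The libraries held 60468481 to 66624830 UMIs over all deposited cells.

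Stretches before the annotated starts of RTN1, LSAMP and TUBB2B are shown because they are the genes the cells are named by. That of FGF13 is shown because it alone of 59 measured neural genes was at least 1.5-fold higher in RTN1-positive cells of ldR-H460. That share of 1.69% was no larger than the 1.98% of all measured genes. RefSeq (GRCh38.p14) lists 3 RTN1 starts. Counting at the 3' end does not tell them apart, and the distal and the proximal one are given. The annotated LSAMP, TUBB2B and FGF13 genes also reach upstream of the starts shown, to chr3:117139389, chr6:3231730 and chrX:139222777. The starts shown for them need not be those used in these cells. All genes lie on the minus strand and sequences read 5' to 3' along it. Bases inside an annotated exon were left out, and capitals mark TGACGT or its other-strand form ACGTCA, the core letters of the cAMP response element. The stretches are chr14:59870967-59871026 and chr14:59630815-59630873 for RTN1, chr3:116445532-116445737 for LSAMP, chr6:3227736-3227903 for TUBB2B and chrX:139205024-139205273 for FGF13.
RTN1 distal start: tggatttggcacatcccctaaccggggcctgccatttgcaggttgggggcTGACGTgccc
RTN1 proximal start: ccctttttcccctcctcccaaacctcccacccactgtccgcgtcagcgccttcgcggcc
LSAMP: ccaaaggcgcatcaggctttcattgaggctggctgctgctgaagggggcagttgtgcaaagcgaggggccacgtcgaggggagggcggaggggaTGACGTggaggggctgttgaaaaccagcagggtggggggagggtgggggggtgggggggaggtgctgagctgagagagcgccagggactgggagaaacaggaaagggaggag
TUBB2B: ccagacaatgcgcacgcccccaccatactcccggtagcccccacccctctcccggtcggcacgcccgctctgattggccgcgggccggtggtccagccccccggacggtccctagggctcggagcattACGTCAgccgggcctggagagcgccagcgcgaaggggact
FGF13: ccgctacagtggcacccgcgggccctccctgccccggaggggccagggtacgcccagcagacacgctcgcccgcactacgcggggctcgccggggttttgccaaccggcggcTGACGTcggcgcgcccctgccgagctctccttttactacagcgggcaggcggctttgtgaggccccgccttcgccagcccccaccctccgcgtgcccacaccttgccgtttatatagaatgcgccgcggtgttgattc
TGACGT, searched on both strands after the sequences had been read, occurred within 250 bases before 4 of the 5 starts, all but the proximal RTN1 start. Among all 34943 promoters of the same length, 7.09% held it. That share is not matched for base content. The 5 windows had 65.2 to 75.2% GC and 7 to 34 CpG (C followed by G), against medians of 58% and 11 over all promoters. TGACGT itself holds a CpG. The letters CAGCACC and GGACAG, parts of the RE1 element bound by the repressor REST, were also searched on both strands. CAGCACC occurred before LSAMP alone among the 5 and in 6.16% of all promoters, and GGACAG before the proximal RTN1 start alone and in 17.2% of all. A match of letters is a description of the window, not a bound site.

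RTN1 UMIs were spread thinly over cells. In H460, 2630 cells had 0 RTN1 UMIs, 924 had 1, 233 had 2, 50 had 3, 11 had 4 and 2 had 5. In ldR-H460, 3533 cells had 0, 774 had 1, 173 had 2, 34 had 3, 4 had 4 and 3 had 5. The cells just outside the threshold, with 1 RTN1 UMI, were therefore more numerous than those just inside it, and no gap separated the classes. In mdR-H460, 20 of 3880 cells of that depth had 1 RTN1 UMI and 1 had 2. Thinned to 5000 UMIs each, RTN1 counts over cells had a variance of 1.03 times their mean in H460 and 1.07 times in ldR-H460, where equal levels in all cells give 1. There were 512 RTN1 UMIs over 3850 thinned cells of H460 and 524 over 4521 of ldR-H460. At so few UMIs per cell the measure can stay near 1 even where levels differ. The same measure was 17.2 for KRT81 and 2.53 for IL6 in H460. A KRT81 UMI was found in 1.64% of thinned H460 cells and an IL6 UMI in 41.8%, against 12.3% for RTN1, so these values are not at equal abundance.

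**Figure D1:**
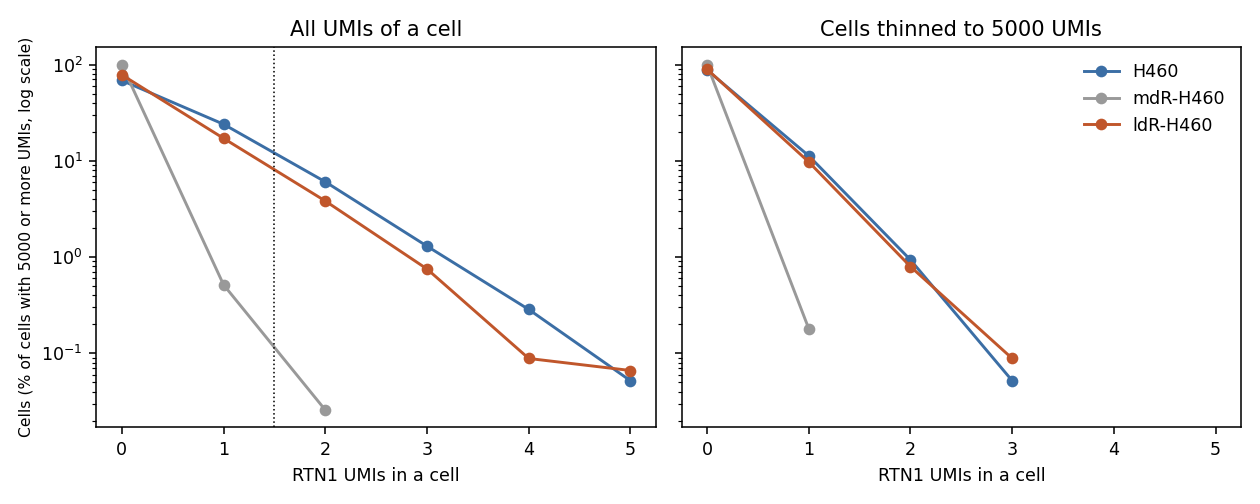
Share of cells (percent of cells with 5000 or more UMIs, log scale) by the number of RTN1 UMIs in the cell, for all UMIs (left) and after thinning each cell to 5000 UMIs (right). Lines join the points of H460, mdR-H460 and ldR-H460; the dotted line is the threshold of 2 RTN1 UMIs, and mdR-H460 has 1 cell beyond it.

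RTN1-positive cells made up 4.73% of cells of 5000 or more UMIs in ldR-H460 (4.13 to 5.39), against 7.69% in H460 (6.87 to 8.58). Depth bears on this share. The median H460 cell of that depth had 16409 UMIs and the median ldR-H460 cell 12807. After thinning, 0.885% of ldR-H460 cells (0.633 to 1.20) and 0.987% of H460 cells (0.699 to 1.35) had 2 or more RTN1 UMIs, and the intervals overlapped. Cells with any RTN1 UMI after thinning made up 12.3% in H460, 0.180% in mdR-H460 and 10.6% in ldR-H460. Free RNA gives some UMIs to cells that do not make a transcript. No cells that should lack RTN1 were identified within H460 or ldR-H460, so that background was not measured there. The mdR-H460 share came from cells with a median of 15591.5 UMIs before thinning.

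RTN1-positive cells were deeper than the cells they were compared with, as a minimum of 2 UMIs favours. Their median was 19690.5 UMIs and 3617 genes against 15433 UMIs and 3165 genes for RTN1-0 cells in H460. In ldR-H460 the medians were 13857 UMIs and 2834 genes against 12684 UMIs and 2720 genes. Mitochondrially encoded transcripts took 4.86% of UMIs in RTN1-positive and 4.801% in RTN1-0 cells of H460, and 6.76% and 6.83% in those of ldR-H460. S phase calls covered 37.2% of RTN1-positive and 36.3% of RTN1-0 cells in H460, and 41.1% and 43.1% in ldR-H460. Libraries shared 24 to 36 cell barcodes with each other, and none belonged to an RTN1-positive cell of both cultures.

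LSAMP, the first of the other markers, had 25.6 CPM in RTN1-positive and 25.4 CPM in RTN1-0 cells of H460, a ratio of 1.01 (0.844 to 1.19). Its level hardly moved along the RTN1 counts: 25.4 CPM in H460 cells with 0 RTN1 UMIs, 26.5 with 1, 25.4 with 2 and 26.2 with 3 or more. After thinning, 9.46% of RTN1-positive H460 cells (6.38 to 13.4) and 12.7% of RTN1-0 cells (11.5 to 14.1) had an LSAMP UMI. In ldR-H460 LSAMP was near 0, with 4 UMIs in RTN1-positive and 37 in RTN1-0 cells. That ratio of 1.63 had an interval of 0.421 to 4.53, so a difference was not detectable at this depth.

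TUBB2B had 10.9 CPM in RTN1-positive and 10.4 CPM in RTN1-0 cells of H460, a ratio of 1.05 (0.797 to 1.37). In ldR-H460 it had 11.4 CPM in RTN1-positive and 9.38 CPM in RTN1-0 cells, a ratio of 1.22 (0.837 to 1.72). Both intervals include equal levels. By RTN1 count, ldR-H460 cells had 9.38 CPM of TUBB2B with 0 RTN1 UMIs, 13.1 with 1, 13.1 with 2 and 4.87 with 3 or more, the last from 3 UMIs. TUBB2A, the neighbouring beta-tubulin gene of near-identical sequence, had a ratio of 0.887 (0.776 to 1.01) in H460 and 1.29 (1.11 to 1.49) in ldR-H460. Reads of such close copies can be split by the counting, so the values of both genes are uncertain to that degree.

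No other reticulon gene reached a 1.5-fold difference. RTN4 had 331 CPM in RTN1-positive and 326 CPM in RTN1-0 cells of H460, a ratio of 1.02 (0.968 to 1.06). In ldR-H460 RTN4 was somewhat higher in RTN1-positive cells, with 365 CPM against 318 CPM, a ratio of 1.15 (1.08 to 1.22), and 1.10 (1.04 to 1.17) without the cell with most RTN4 UMIs in each class. RTN3 had 27.4 and 27.1 CPM in the same classes of H460, and 36.5 and 35.4 CPM in ldR-H460. The reticulon family genes measured numbered 4 in H460 and 3 in ldR-H460. A gene was counted as measured where at least 10 UMIs were expected in the RTN1-positive cells if both classes had the same level, and as higher or lower from a ratio of 1.5-fold on.

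Beyond these, 254 genes in 8 neural lists were followed. In H460, 90 were measured, of which 3 were at least 1.5-fold higher in RTN1-positive cells (3.33%) and 8 at least 1.5-fold lower (8.89%). Of all 10788 measured genes of H460, 1.11% were that much higher and 3.42% that much lower. In ldR-H460, 59 were measured, of which 1 was higher (1.69%) and 3 were lower (5.08%), against 1.98% and 3.93% of all 9055 measured genes. The median neural gene had a log2 ratio of 0.016 in H460 and 0.065 in ldR-H460, and the median over all measured genes was -0.031 in H460 and -0.014 in ldR-H460. Summed over measured neural genes, the level was 4319.8 CPM in RTN1-positive and 4305.5 CPM in RTN1-0 cells of H460, and 2841 and 2649 CPM in those of ldR-H460. Of the 53 neural genes measured in both cultures, none was 1.5-fold higher in both and none was lower in both.

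**Figure D2:**
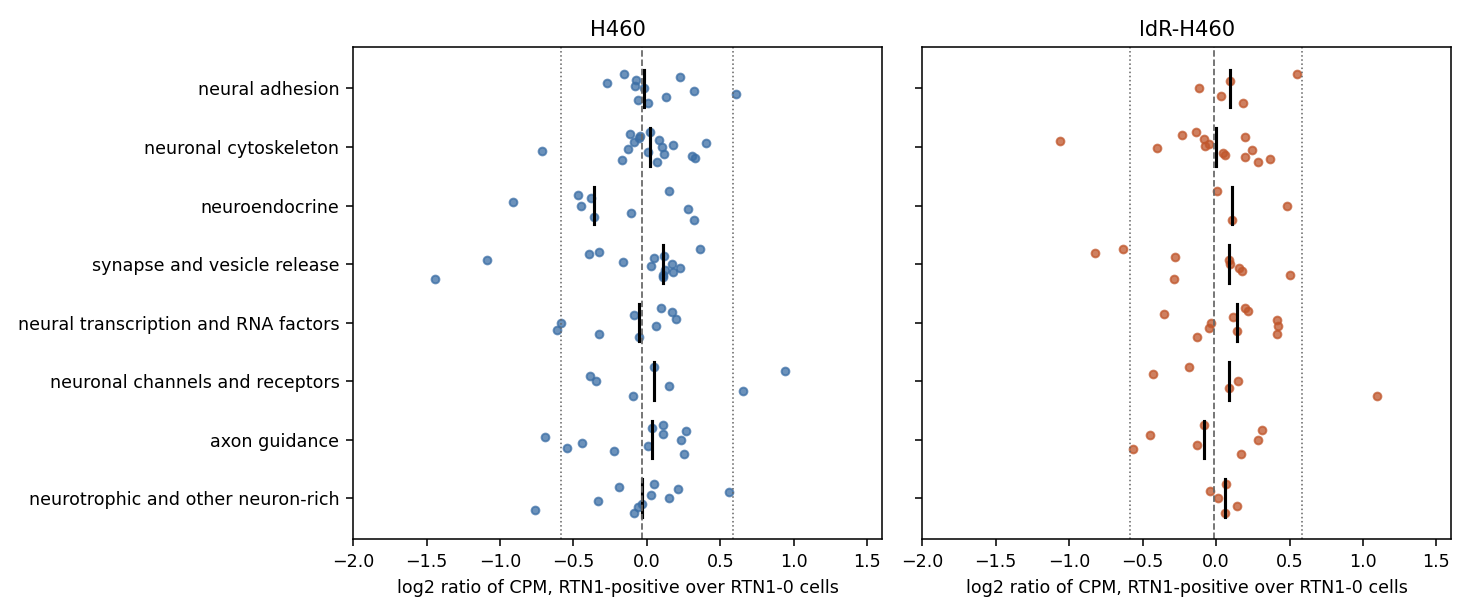
Log2 ratio of CPM, RTN1-positive over RTN1-0 cells, for each measured gene of the 8 neural lists in H460 (left) and ldR-H460 (right). Each point is a gene, thick bars are list medians, the dashed line is the median of all measured genes and dotted lines mark 1.5-fold; 79 of 90 genes in H460 lie between the dotted lines.

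By role, the list of neuronal channels and receptors held 2 of the 3 higher genes of H460 among 7 measured and the higher gene of ldR-H460 among 5. Neural adhesion genes added the other, 1 of 11 measured in H460, and none of 5 in ldR-H460. Of the neuronal cytoskeleton genes, 0 of 17 were higher and 1 lower in H460, and 0 of 14 were higher and 1 lower in ldR-H460. Of the synapse and vesicle release genes, 0 of 15 were higher and 2 lower in H460, and 0 of 9 were higher and 2 lower in ldR-H460. The neuroendocrine list had 0 of 9 higher and 1 lower in H460, with a median log2 ratio of -0.36, and 0 of 3 past the mark in ldR-H460. Neural transcription and RNA factors had 0 of 9 higher and 2 lower in H460, and 0 of 11 past the mark in ldR-H460. Axon guidance genes and other neuron-rich genes had 11 measured each in H460, with 0 higher and 1 lower in each list, and none past the mark in ldR-H460.

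Genes that define neurons were rare in the RTN1-positive cells. DCX, STMN2, ELAVL4 and RBFOX3, together with the neuroendocrine factors INSM1 and NEUROD1, were listed in neither culture's table. TUBB3, a tubulin of neurons, had 5 UMIs in RTN1-positive and 32 in RTN1-0 cells of H460, and 1 and 9 in those of ldR-H460. The synaptic vesicle gene SYP had 1 and 19 UMIs in H460, and 4 and 48 UMIs in ldR-H460, for the same classes. SYN1, another synaptic vesicle gene, had 1 and 8 UMIs in H460 and 2 and 16 in ldR-H460. At these counts a difference between classes was not detectable.

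Neural genes that were abundant in these cultures stood at near-equal levels. UCHL1, a ubiquitin hydrolase of neurons and neuroendocrine cells, had 699 CPM in RTN1-positive and 752 CPM in RTN1-0 cells of H460, and 572 and 530 CPM in those of ldR-H460. The ratios of 0.930 (0.9001 to 0.960) and 1.08 (1.03 to 1.13) lie on opposite sides of 1. The neurofilament gene NEFL had 83.6 and 79.2 CPM in the classes of H460, and 113 and 117 CPM in those of ldR-H460. BASP1, a protein of nerve endings, had 593 and 614 CPM in H460, and 316 and 276 CPM in ldR-H460. MAP1B, a microtubule protein of axons, had ratios of 1.00 (0.925 to 1.09) and 1.03 (0.925 to 1.15) in the same order. TUBA1A, the main alpha-tubulin of young neurons, was somewhat higher in both, at 1.24 (1.18 to 1.30) in H460 and 1.15 (1.04 to 1.27) in ldR-H460, under the 1.5-fold mark.

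The 3 neural genes past 1.5-fold higher in H460 were GABBR2, FGF14 and L1CAM. GABBR2, a subunit of the GABA-B receptor, had 6.36 CPM in RTN1-positive and 3.32 CPM in RTN1-0 cells, a ratio of 1.92 (1.30 to 2.76). FGF14, which binds neuronal sodium channels, had 11.9 and 7.56 CPM, a ratio of 1.57 (1.20 to 2.04). L1CAM, an axon adhesion molecule, had 6.02 and 3.96 CPM, a ratio of 1.52 (1.03 to 2.19). Their UMIs lay in many cells: 29, 51 and 33 of the 296 RTN1-positive cells carried GABBR2, FGF14 and L1CAM. H460 cells with 1 RTN1 UMI had 4.44 CPM of GABBR2, 10.2 CPM of FGF14 and 5.39 CPM of L1CAM, between the levels of the compared classes for all 3 genes. Without H460 cells rich in S100A8 and S100A9, DDIT3 or FGG, GABBR2 alone of the 3 stayed past 1.5-fold, and FGF14 and L1CAM had log2 ratios of 0.58 and 0.57. With RTN1-0 cells weighted to the depth of RTN1-positive cells, the log2 ratios were 0.88 for GABBR2, 0.72 for FGF14 and 0.58 for L1CAM. The L1CAM ratio was 1.48 without the top cell of each class. In ldR-H460 GABBR2 had no UMI in either class, and FGF14 had 0 UMIs in RTN1-positive and 3 in RTN1-0 cells, so no ratio is given.

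Lower in RTN1-positive H460 cells were SNAP25, CPLX2, CPE, BEX2, MAP2, EPHA3, ZIC2 and EBF1. CPLX2, complexin of synaptic vesicle release, had 4.18 CPM in RTN1-positive and 8.88 CPM in RTN1-0 cells, a ratio of 0.471 (0.301 to 0.706). SNAP25, a membrane fusion protein of the synapse, had 5 UMIs against 96, a ratio of 0.368 (0.117 to 0.888). Of the 96 SNAP25 UMIs, 23 came from 1 RTN1-0 cell, and without the top cells the interval was 0.103 to 1.04 and included equal levels. MAP2, a dendritic microtubule protein, had 6.19 and 10.1 CPM, a ratio of 0.610 (0.424 to 0.855). BEX2 had a ratio of 0.588 (0.336 to 0.966). For CPE, EPHA3, ZIC2 and EBF1, with 7 to 13 UMIs in the RTN1-positive cells, the intervals included equal levels. Without H460 cells rich in S100A8 and S100A9, DDIT3 or FGG, 4 neural genes were that much lower, against 8 with them. In ldR-H460 CPLX2 and MAP2 had ratios of 0.824 (0.712 to 0.949) and 1.18 (0.953 to 1.45). The lower genes of ldR-H460 were NEFH, HOMER1 and GPHN, with 6, 11 and 13 UMIs in RTN1-positive cells and intervals that included equal levels.

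FGF13 was the 1 of 59 measured neural genes past 1.5-fold higher in ldR-H460, a share of 1.69% against 1.98% of all measured genes. It encodes a factor that stays inside the cell and binds sodium channels and microtubules. It had 13.05 CPM in RTN1-positive and 6.11 CPM in RTN1-0 cells, a ratio of 2.14 (1.49 to 2.98). By RTN1 count, ldR-H460 cells had 6.11 CPM of FGF13 with 0 RTN1 UMIs, 7.94 with 1, 12.3 with 2 and 16.2 with 3 or more. The 40 FGF13 UMIs came from 28 RTN1-positive cells, at most 3 from 1 cell, and without the top cell of each class the ratio was 2.03 (1.40 to 2.86). With a minimum of 1 RTN1 UMI the log2 ratio was 0.57, against 1.09 at 2 UMIs, and with RTN1-0 cells weighted to the same depth it was 1.02. In H460, where FGF13 was more abundant, it had 53.4 CPM in RTN1-positive and 57.1 CPM in RTN1-0 cells, a ratio of 0.934 (0.829 to 1.05).

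CDH11, a cadherin of mesenchymal cells, was also higher in RTN1-positive cells of ldR-H460. Of 10 measured genes of the mesenchymal list there it was the 1 past 1.5-fold higher, and 0 were lower. The list had a median ratio of 1.04, and 1.98% of all measured genes were that much higher. In H460, 0 of 12 mesenchymal genes were higher and 1 was lower. CDH11 had 18.3 CPM in ldR-H460 against 10.9 CPM in RTN1-0 cells, a ratio of 1.68 (1.25 to 2.22). CDH11 levels by RTN1 count were 10.9, 15.5, 18.8 and 16.2 CPM for 0, 1, 2 and 3 or more RTN1 UMIs. In H460 CDH11 had 177 CPM in RTN1-positive and 163 CPM in RTN1-0 cells, a ratio of 1.09 (1.02 to 1.16). Over whole cultures, RTN1 and FGF13 were low in mdR-H460, as were CDH11 and LSAMP. RTN1 had 24.5 CPM in H460, 0.342 in mdR-H460 and 21.0 in ldR-H460. FGF13 had 57.8, 0.187 and 6.79 CPM in the same order, and CDH11 166, 0.109 and 12.1 CPM. LSAMP had 25.7, 0.109 and 0.821 CPM, and TUBB2B 10.3, 1.87 and 10.1 CPM.

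**Figure D3:**
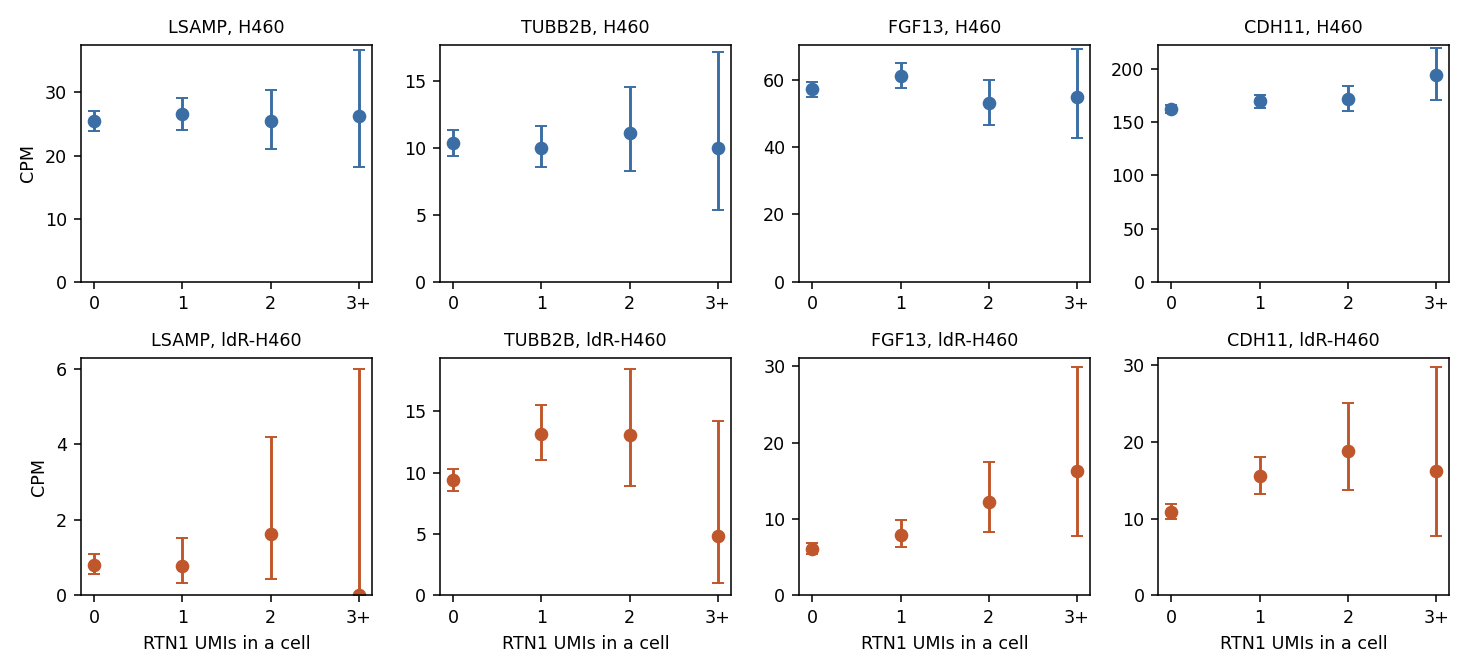
CPM of LSAMP, TUBB2B, FGF13 and CDH11 in cells with 0, 1, 2 or 3 and more RTN1 UMIs, in H460 (top) and ldR-H460 (bottom); bars are exact Poisson 95% intervals for counting error. FGF13 in ldR-H460 stands at 6.11, 7.94, 12.3 and 16.2 CPM along the axis, and LSAMP stays between 25.4 and 26.5 CPM in H460.

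Outside the neural lists, the highest ratios of H460 included those of CST2, KRT81, MMP1, PIDD1, HIST1H2AH, FAM216B, ANKMY1, ABCA3 and CEND1, between 2.10 and 4.34. The leading values rested on single cells. CST2, a cystatin, had 59 UMIs in RTN1-positive cells and 45 of them came from 1 cell. KRT81, a hair keratin, had 70 UMIs with 56 from 1 cell. Without the top cell of each class the CST2 ratio of 4.34 became 1.42 and the KRT81 ratio of 2.60 became 0.666. The collagenase gene MMP1 had 34.3 CPM against 14.0 CPM in RTN1-0 cells, a ratio of 2.45 (2.08 to 2.88), and 2.20 without the top cells. CEND1, short for cell cycle exit and neuronal differentiation 1, had a ratio of 2.10 (1.19 to 3.54) from 19 UMIs in RTN1-positive cells. Without the top cells it was 1.83 (0.984 to 3.20), which includes equal levels. The count of higher neural genes thus depends on which genes the lists hold. Among the lowest in H460 were HSPA6, IRF7, IL24, PLAC8, TIMP3, IL1RL1, CGA, SCGB3A2 and BTG2, with 1 to 9 UMIs in RTN1-positive cells. The interferon factor IRF7 had 1 UMI against 98 in RTN1-0 cells.

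In ldR-H460 the highest ratios belonged to AREG, IL6, AKAP12, DDIT4L, FGF13, SPINK6, FGB, CXCL2, TUFT1 and FUCA1, between 1.99 and 7.64. AREG, a ligand of the EGF receptor, had 71 UMIs in RTN1-positive cells, 47 of them in 1 cell, and its ratio of 7.64 became 3.22 without the top cells. The cytokine gene IL6 had 21.2 CPM against 7.91 CPM in RTN1-0 cells, a ratio of 2.68 (2.03 to 3.50), and 2.15 without the top cells. The chemokine gene CXCL2 had 63.3 and 31.6 CPM, a ratio of 2.00 (1.71 to 2.33), and 1.69 without the top cells. The immediate early gene JUNB had 45.3 and 27.5 CPM, a ratio of 1.65 (1.37 to 1.97), and 1.43 without the top cells. It was the only one of 16 measured immediate early genes past 1.5-fold. Among the lowest were CAMKK1, TMEM184A, SLC12A8, LDB1, RC3H1, PPP1R37, ZNF584, SLC25A29 and TTC33, each with 3 to 6 UMIs in RTN1-positive cells.

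**Figure D4:**
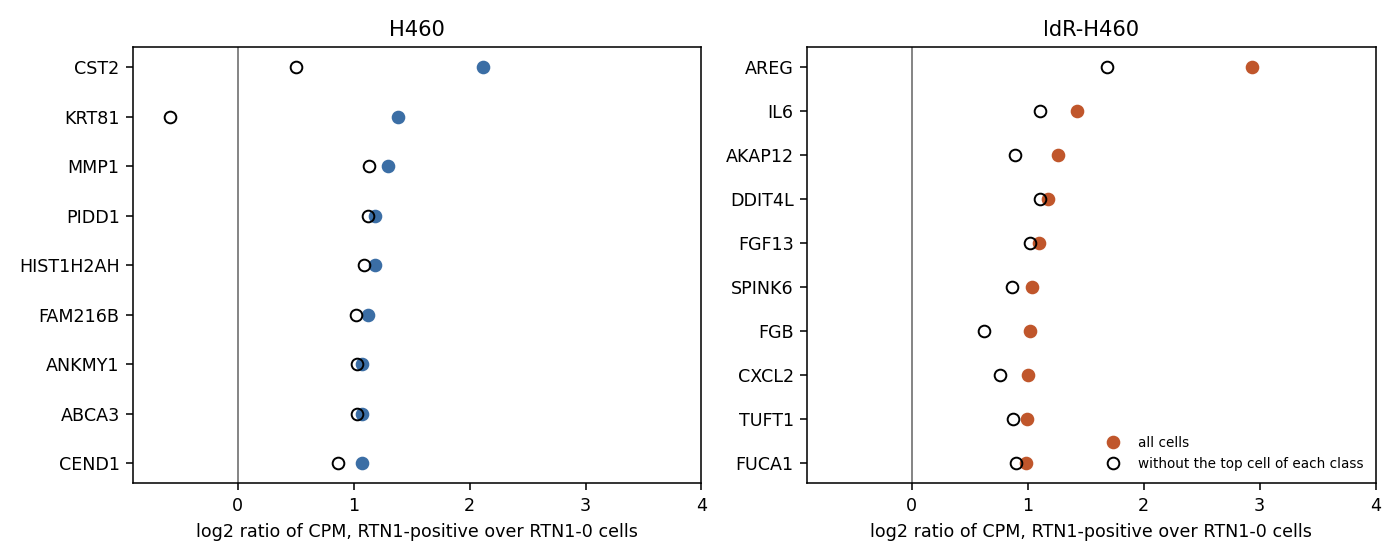
Log2 ratio of CPM, RTN1-positive over RTN1-0 cells, of the reported genes among the 10 with the highest ratio in H460 (left) and ldR-H460 (right), with all cells (filled) and without the cell that held most UMIs of the gene in each class (open). KRT81 in H460 changes side without 1 cell, and FGF13 in ldR-H460 does not.

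Of 8948 genes measured in both cultures, 2 were at least 1.5-fold higher in RTN1-positive cells of both, 14 were lower in both and 9 went in opposite directions. The higher ones were KRT81, with ratios of 2.60 in H460 and 1.66 in ldR-H460, and C10orf54 (the immune checkpoint gene VSIR), with ratios of 1.58 and 1.54. The interval of C10orf54 in ldR-H460, 0.892 to 2.51, includes equal levels. Without the top cell of each class, KRT81 had ratios of 0.666 in H460 and 1.31 in ldR-H460, and C10orf54 had 1.48 and 1.41, so neither gene was then 1.5-fold higher in both. The lower ones included FBLN5, BBC3, RREB1, MAP6D1, PPP3R1, GCNT2, AMER1 and PATL1. Each of these had an interval that included equal levels in at least 1 culture, and RREB1, MAP6D1 and AMER1 had so in both. Of all measured genes of each culture, 3.42% were at least 1.5-fold lower in H460 and 3.93% in ldR-H460. BBC3, a pro-apoptotic target of p53, had ratios of 0.372 (0.183 to 0.679) in H460 and 0.596 (0.294 to 1.08) in ldR-H460. The 2 genes higher in both are 6.67% of the 30 higher genes of H460 and 1.16% of the 172 higher genes of ldR-H460 among those measured in both. Of all genes measured in both, 1.92% were higher in ldR-H460 and 0.335% in H460.

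In H460, genes that mark other groups of cells in that culture differed in both directions. CD24, a surface glycoprotein, had 176 CPM in RTN1-positive and 125 CPM in RTN1-0 cells, a ratio of 1.40 (1.31 to 1.499) that is under the 1.5-fold mark. The retinal dehydrogenase gene ALDH1A1 had 61.2 and 46.9 CPM, a ratio of 1.31 (1.16 to 1.46), and in ldR-H460 36.2 and 25.1 CPM, a ratio of 1.44 (1.18 to 1.76). CD24 in ldR-H460 had a ratio of 0.641 (0.398 to 0.981). All 4 measured calprotectin and squamous genes were lower. S100A9, a calprotectin chain, had 174 CPM in RTN1-positive and 450.0 CPM in RTN1-0 cells, and S100A8, the other chain, had 87.0 and 151 CPM. A single RTN1-positive cell held 247 of the 520 S100A8 UMIs of its class, and the S100A8 ratio of 0.577 became 0.3202 without the top cells. The secreted protease inhibitors SLPI and PI3 had ratios of 0.425 (0.391 to 0.461) and 0.518 (0.465 to 0.575). Of 15 measured stress response genes, 6 were lower and none was higher. DDIT3, a factor of the integrated stress response, had 12.9 and 49.2 CPM, and the heat shock gene HSPA6 had 5 UMIs against 1021, of which 443 came from 1 RTN1-0 cell. The fibrinogen chain FGG and glycodelin (PAEP) had ratios of 0.277 (0.211 to 0.359) and 0.419 (0.373 to 0.469). In ldR-H460, where S100A9 had 1 UMI in RTN1-positive and 108 in RTN1-0 cells, none of 14 measured stress genes was 1.5-fold apart.

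Shares of RTN1-positive cells were also taken within those groups of cells. For genes picked by their ratio above, this reads the same UMIs from the other side and is no separate support. Cells with 10 or more S100A8 and S100A9 UMIs in H460 were RTN1-positive in 3.48% of cases (10 of 287; 1.68 to 6.31), against 8.03% of all other cells (7.16 to 8.97). Their RTN1 level was 13.1 CPM (10.2 to 16.6) against 25.5 CPM (24.2 to 26.8), at median depths of 18417 and 16169 UMIs. Of 41 H460 cells with 5 or more DDIT3 UMIs, 0 were RTN1-positive, against 7.77% of the others. The upper bound of that share was 8.60%, so a difference in share was not detectable in so few cells. The RTN1 level of these DDIT3-rich cells was 8.86 CPM (2.88 to 20.7), against 24.6 CPM (23.4 to 25.9) in the others. H460 cells with 5 or more FGG UMIs had 15.2 CPM of RTN1 (9.99 to 22.1) against 24.8 CPM (23.5 to 26.0). In both cases the intervals of the level did not overlap. Cells with 10 or more CD24 UMIs were RTN1-positive in 15.3% of cases (29 of 190) against 7.30%. Those were deep cells, with a median of 21695 UMIs against 16005, and their RTN1 level was 30.0 CPM (24.97 to 35.7) against 24.1 CPM (22.9 to 25.4). Cells with 3 or more ALDH1A1 UMIs were RTN1-positive in 12.4% of cases (43 of 346; 9.14 to 16.4) against 7.22% (6.39 to 8.13). Their RTN1 level was 29.3 CPM (25.3 to 33.6) against 23.9 CPM (22.7 to 25.2), at median depths of 19069 and 16080.5 UMIs. H460 cells with 2 or more LSAMP UMIs had 25.6 CPM of RTN1 (21.8 to 30.0) against 24.4 CPM in all others, and those with 2 or more TUBB2B UMIs 21.9 CPM (16.6 to 28.3) against 24.6 CPM.

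In ldR-H460, cells with 5 or more UMIs of ANKRD1, a target of YAP, were RTN1-positive in 10.0% of cases (31 of 310; 6.90 to 13.9), against 4.35% of all other cells (3.75 to 5.01). Their RTN1 level was 31.1 CPM (25.9 to 37.0) against 20.3 CPM (19.1 to 21.5), at nearly equal depth. FGF13 did not follow ANKRD1: it had 4.41 CPM in ANKRD1-rich cells and 6.96 CPM in the others. Without ANKRD1-rich cells the FGF13 ratio between RTN1-positive and RTN1-0 cells was 2.19 (1.5 to 3.10) and the CDH11 ratio 1.75 (1.29 to 2.34). The KRT81 ratio of ldR-H460 was 1.15 (0.897 to 1.46) without them, against 1.66 with them. KRT81 itself had 70.0 CPM in ANKRD1-rich cells and 24.8 CPM in the others. Cells with 2 or more FGF13 UMIs had 38.1 CPM of RTN1 (27.3 to 51.7) against 20.7 CPM (19.5 to 21.9) in all others. FGF13 was picked for its ratio in these same cells, so this restates that ratio and is no separate support.

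**Figure D5:**
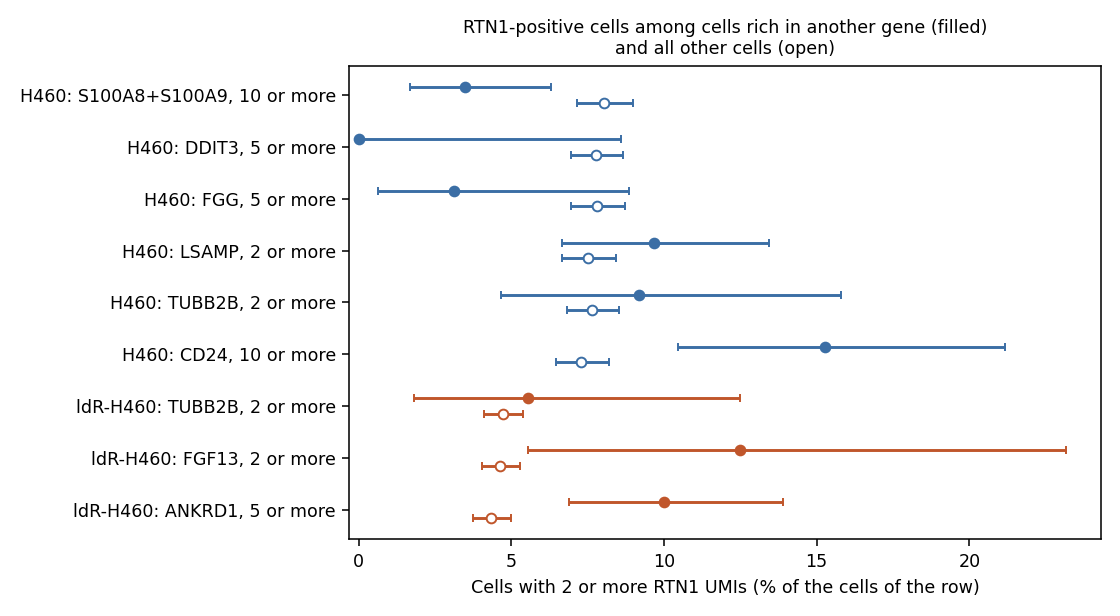
Percent of cells with 2 or more RTN1 UMIs among cells rich in another gene (filled) and among all other cells of the same culture (open), in H460 (blue) and ldR-H460 (orange); bars are exact Clopper-Pearson 95% intervals for counting error. S100A8 and S100A9 rich cells of H460 stand at 3.48% against 8.03%, and ANKRD1 rich cells of ldR-H460 at 10.0% against 4.35%.

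Lists of other cell types were followed as well. Of all measured genes, 1.11% were 1.5-fold higher and 3.42% lower in H460, and 1.98% and 3.93% in ldR-H460. Of 19 epithelial genes, 12 were measured in H460, 1 higher and 0 lower, with a median ratio of 0.946. In ldR-H460, 9 were measured, 1 higher and 1 lower, with a median ratio of 1.02. The keratin gene KRT19 was abundant, with 1697 CPM in RTN1-positive and 1647 CPM in RTN1-0 cells of H460. Of 13 fibroblast genes, 5 were measured in H460, none higher and 2 lower in RTN1-positive cells, and S100A4 alone was measured in ldR-H460, at 552 CPM against 517 CPM. COL1A2 had 0 UMIs in RTN1-positive and 3 in RTN1-0 cells of ldR-H460, and DCN, LUM and THY1 were not listed there. Other fibroblast genes did have UMIs in the same classes of ldR-H460: COL1A1 6 and 50, COL3A1 3 and 146, and PDGFRB 2 and 11. In H460, COL1A1 had 9 UMIs in RTN1-positive and 130 in RTN1-0 cells, and LUM had 25 and 198. Of 16 neural crest and glia genes, 3 were measured in H460 and 2 in ldR-H460, none 1.5-fold apart. Genes within 5 Mb of RTN1 on chromosome 14 had a median log2 ratio of -0.080 over 44 measured genes in H460, 1 of them 1.5-fold higher and 3 lower. Of all 356 measured genes of that chromosome in H460, 3 were higher and 13 lower. In ldR-H460 the median within 5 Mb was -0.0010 over 40 genes, with 0 higher and 3 lower, against 3 higher and 16 lower of 315 on the chromosome. RTN1 itself lies at chr14:59595976-59870966 (GRCh38, minus strand).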

How the data were processed

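For each of 3 cultures the authors deposited a table of raw UMI counts, genes by cells, for cells left after their quality filter, per the series design text. The submitters' processing notes name Cell Ranger 3.0.2, Seurat 3.0 and GRCh38 but give no roles, and the release of the annotation was not stated. The values were whole numbers and were used as deposited. UMIs were summed over the cells of a class and divided by the class total to give CPM. The compared classes held 5977419 UMIs (RTN1-positive) and 42210914 (RTN1-0) in H460, and 3065221 and 46153074 in ldR-H460. Levels have exact Poisson, ratios binomial-based and shares Clopper-Pearson 95% intervals (scipy 1.17.1). A floor of 3 UMIs stood for a count of 0. Thinning drew 5000 UMIs per cell without replacement, leaving out shallower cells. Phases were called on thinned cells with scanpy 1.11.5. Doublets were not called, and no clusters were made. Ratios and calls were tested on simulated class sums without variation between cells, so the intervals were not tested against such variation.

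The cells, the gene lists and the naming rule were chosen with earlier results of these data known. The rule named RTN1, LSAMP and TUBB2B, measured neural genes past 1.5-fold, measured reticulons, the 10 highest and 10 lowest ratios of each culture without clone-based symbols, up to 10 genes past 1.5-fold in both, and up to 4 members of other lists. A few of those genes are not reported here. Other neural genes given for their abundance, the genes used to define rich cells and the searched motifs were chosen after values were seen. Older symbols were matched through a table of gene names. Alternatives covered the RTN1 and depth minimums, thinning, weighting of cells, phase, scaling and the measured and fold thresholds.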

Additional observations from a re-analysis of the deposited data

Results flagged for a closer look

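In the genes given here the ratio between RTN1-positive and RTN1-0 cells lay on opposite sides of 1 in the cultures, past 1.5-fold in at least 1, with intervals that did not overlap. With 1 library per culture the difference between cultures was not tested. Higher in RTN1-positive cells of ldR-H460 were AREG, with a log2 ratio of 2.93 there and -0.61 in H460, IL6 with 1.42 and -0.031, and AKAP12 with 1.26 and -0.071. DDIT4L had log2 ratios of 1.17 in ldR-H460 and -0.30 in H460, FGF13 had 1.09 and -0.098, and SPINK6 had 1.04 and -0.15. FGB had 1.02 in ldR-H460 and -1.86 in H460, CXCL2 had 1.00 and -0.10, and TUFT1 had 1.00 and -0.46. In RTN1-positive cells of ldR-H460, 1 cell held 10 of the 38 FGB UMIs. Without the top cell of each class the FGB ratio of 2.03 became 1.54 (1.01 to 2.28). In the same way AKAP12 went from 2.39 to 1.85, DDIT4L from 2.25 to 2.15, SPINK6 from 2.06 to 1.83 and TUFT1 from 1.99 to 1.83. Lower in RTN1-positive cells of ldR-H460 were CAMKK1, with a log2 ratio of -2.26 there and 0.38 in H460, LDB1 with -1.67 and 0.26, and SLC25A29 with -1.43 and 0.26. PLAC8 had log2 ratios of 0.51 in ldR-H460 and -3.56 in H460, and MAP2 had 0.24 and -0.71. Of the genes on neural lists, FGF13 and MAP2 are among them.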

How the results depend on the processing

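No paired analysis was possible because each culture has 1 library and the classes compared come from the same library. The count of neural genes 1.5-fold higher in H460, 3, was 1 with a minimum of 1 RTN1 UMI, in G1 cells, without the 5% of cells with the most UMIs, at 30 or more expected UMIs and without cells rich in S100A8 and S100A9, DDIT3 or FGG, and 0 in thinned cells and at 2-fold. The count lower in H460, 8, was 5 with a minimum of 1 RTN1 UMI, 2 with a minimum of 3, at 30 expected UMIs and at 2-fold, 0 in thinned cells and 4 without those rich cells. The count higher in ldR-H460, 1, was 3 with a minimum of 1 RTN1 UMI and with RTN1-0 cells weighted by depth, 4 in cells of 10000 or more UMIs, 2 in G1 cells and without ANKRD1-rich cells, and 0 in thinned cells and at 30 expected UMIs. The count lower in ldR-H460, 3, was 1 in thinned cells, in G1 cells and at 2-fold, and 0 at 30 expected UMIs. The TUBB2B ratio of H460 was 1.37 in G1 cells. Shares of RTN1-positive cells in thinned cells were 0.885% in ldR-H460 and 0.987% in H460.

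Thinned cells left 38 RTN1-positive cells in H460 and 40 in ldR-H460, with 18 and 10 neural genes measured, so those counts rest on few UMIs. LSAMP and TUBB2B got no value in thinned cells, nor in ldR-H460 with a minimum of 3 RTN1 UMIs, nor did TUBB2B in G1 cells of ldR-H460, for want of UMIs. Over 81 single genes and 783 alternative values, 727 stayed within the counting interval, 49 moved outside it and 7 changed direction, and 266 had too few UMIs for a value. With a minimum of 1 RTN1 UMI the log2 ratio became 0.012 for ZIC2 and 0.073 for PPP3R1 in H460, and 0.021 for SLC12A8, 0.092 for PPP1R37, 0.14 for SLC25A29 and 0.10 for HOMER1 in ldR-H460; the cause was not tested. Without the cell with most UMIs KRT81 in H460 had -0.59. Leaving out rich cells or top cells was chosen after seeing the data.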
